A study of Mus musculus with 7 samples.

Results

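Trem2+ Gpnmb+ macrophages are mononuclear phagocytes that hold transcripts of the lipid receptor Trem2 and of the lysosomal glycoprotein Gpnmb. They were taken here from 5 libraries of CD45+ heart leukocytes of mice, as cell barcodes with at least 2 unique molecular identifiers (UMIs, each standing for 1 captured transcript) of Gpnmb and at least 2 of Trem2. A barcode also had to hold at most 2 UMIs summed over Lyve1, Folr2, Timd4 and Cbr2, which mark resident cardiac macrophages, and fewer than 3 UMIs of the B cell gene Cd79a. Barcodes with fewer than 200 genes or with over 10% of UMIs from mitochondria were dropped, which left 4763 of 4942 barcodes, and 372 of the 4763 met the rule. The hearts came from male C57BL6/J mice, without surgery (the steady state library, 5 mice pooled) or after a coronary artery had been tied off for good, which infarcts the left ventricle, at day 1, day 3 and day 5 (5 mice pooled at each) and day 7 (3 mice pooled). The tissue was the infarct with its border zone and adjacent viable myocardium, digested with collagenase, and cells reached by an intravenous CD45.2 antibody were excluded by the sort. A step that lowered the number of neutrophils preceded the sort of these libraries. A second experiment on CD11b+ heart cells pooled day 1 and day 3 (5 mice each) and day 5 (3 mice) under 3 hashtag antibodies, with 10 antibodies against surface proteins, and gave values of the same genes in other mice. Each time point was 1 pooled library or hashtag, so no mouse-to-mouse spread was measured, and p-values measure the spread between libraries of different days.

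Trem2 is a surface receptor of macrophages and microglia that binds lipids, lipoproteins and apoptotic debris and signals through the adaptor Tyrobp (DAP12) and the kinase Syk. Macrophages that carry it are known from lipid-laden sites such as adipose tissue and atherosclerotic plaque, where lysosomal, lipid-binding and lipid-exporting genes are expressed with it. Gpnmb is a transmembrane glycoprotein of lysosomes and phagosomes, a known target of the MITF and TFE family of transcription factors, and Spp1 encodes osteopontin, a secreted matrix protein of wound macrophages. After infarction the heart is entered by monocytes, which clear dying muscle cells and then turn into macrophages of the healing scar.

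The CD45+ libraries held 3655070 to 11528452 UMIs after the quality limits, and the CD11b+ pool held 104249514. Libraries shared at most 2 barcodes per pair, none of them a Trem2+ Gpnmb+ barcode, and Scrublet marked 0.211% to 1.09% of barcodes per CD45+ library as doublets, 1 of them a Trem2+ Gpnmb+ barcode. Most of the barcodes held Csf1r, the receptor for macrophage colony-stimulating factor. It was detected in 74 of 78 on day 3, 199 of 209 on day 5 and 82 of 85 on day 7. Csf1r does not tell macrophages from monocytes, since the Ly6c2+ monocytes described further on had to hold it too. Spp1, a further marker of these macrophages, was not used by the rule and was detected in 98.7%, 99.5% and 100% of the Trem2+ Gpnmb+ barcodes. It was detected in 98.3%, 96.9% and 95.7% of all mononuclear phagocytes of these days as well, so its detection hardly sets them apart. Lymphocyte barcodes held some of these transcripts as well: of 1049 day 7 B cell barcodes (median 2879 UMIs), 725 held Spp1, 146 held at least 2 UMIs of Trem2, 46 at least 2 of Gpnmb and 39 both. Day 7 T cell barcodes with both at 2 UMIs numbered 0 of 83 (median 3869 UMIs), against 126 of 509 mononuclear phagocytes (median 10205 UMIs). On day 5, 2 of 15 T cell barcodes (median 3036 UMIs) and 1 of 28 B cell barcodes held both. On that day 1 of 209 Trem2+ Gpnmb+ barcodes held at least 3 UMIs over Cd3d, Cd3e and Cd3g.

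Trem2+ Gpnmb+ macrophages were found on days 3, 5 and 7 and made up the largest share of cells on day 5. At steady state the rule found 0 of 645 barcodes (95% exact binomial interval up to 0.570%), and on day 1 it found 0 of 527 (up to 0.698%). On day 3 it found 78 of 848 barcodes, or 9.20% (95% exact binomial interval 7.34% to 11.3%), on day 5 209 of 948, or 22.05% (19.4% to 24.8%), and on day 7 85 of 1795, or 4.74% (3.80% to 5.82%). The day 7 library held 1049 B cell barcodes, so shares of mononuclear phagocytes are less affected by the other leukocytes. Of mononuclear phagocytes (the Trem2+ Gpnmb+ barcodes plus those with Csf1r and at least 2 UMIs over a set of macrophage genes that includes Cd68, Adgre1, Fcgr1 and C1qa), they made up 12.3% (9.82% to 15.1%) on day 3, 27.2% (24.1% to 30.5%) on day 5 and 16.7% (13.6% to 20.2%) on day 7. The same rule gave 0 of 571 phagocytes at steady state and 0 of 173 on day 1, with exact intervals up to 0.644% and 2.11%. Intervals and limits cover counting error only, since each time point was 1 library, and the shares were not tested between time points.

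In the CD11b+ pool the rule found 20 of 254 phagocytes on day 1 (7.87%, 4.88% to 11.9%), 228 of 1280 on day 3 (17.8%, 15.8% to 20.0%) and 300 of 1393 on day 5 (21.5%, 19.4% to 23.8%). The share was thus lowest on the earliest day of both experiments, and the day 1 value was above 0 in the pool, whose median depth was 28744.5 UMIs per such barcode, while the CD45+ libraries gave 0. With every barcode thinned to 2000 UMIs, the shares of phagocytes were 3.98%, 20.3% and 13.6% on days 3, 5 and 7 of the CD45+ libraries and 2.5%, 11.6% and 27.5% on days 1, 3 and 5 of the pool. Thinning left out 36 steady state and 38 day 1 barcodes of the CD45+ libraries and 234 of the pool. The plot of shares by time point gives these values with their intervals.

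**Figure D1:**
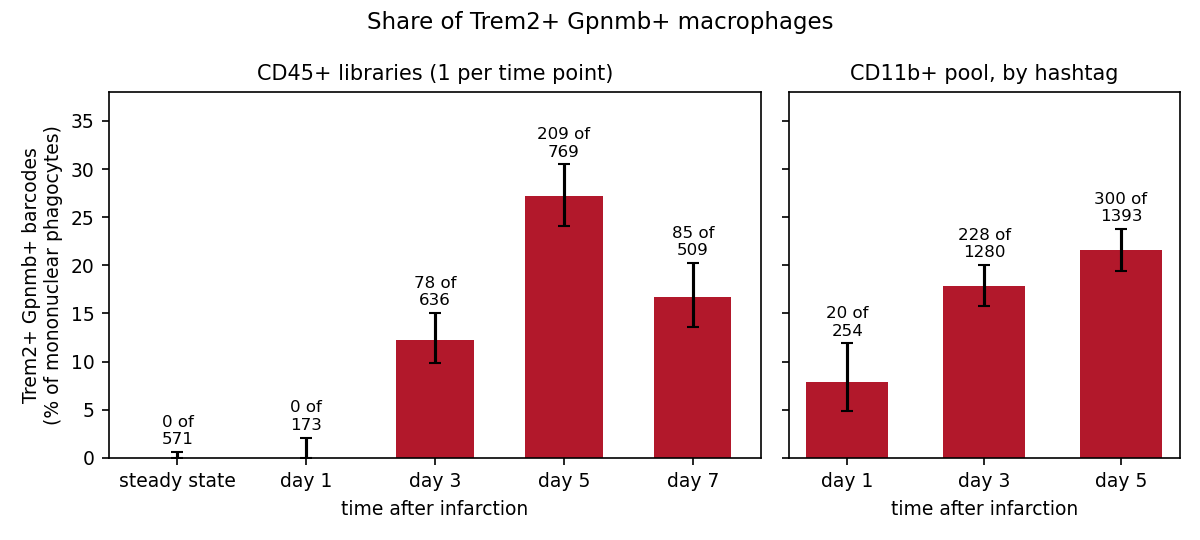
Share of Trem2+ Gpnmb+ barcodes among mononuclear phagocytes (%, linear axis from 0) by time after infarction, in the CD45+ libraries (left) and in the CD11b+ pool by hashtag (right). Bars are shares, whiskers are 95% exact binomial intervals, and the counts stand above; the share was 0 at steady state and day 1 of the CD45+ libraries and highest on day 5 in both experiments, at 27.2% and 21.5%.

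The genes of the rule describe how the barcodes were chosen and carry no test. Trem2 alone was present before infarction: 171 of 645 steady state barcodes held at least 2 UMIs of Trem2, while none held 2 of Gpnmb. Among the chosen barcodes Trem2 ran from 2 UMIs to 36, 54 and 59 on days 3, 5 and 7, with medians of 7, 10 and 14, and Gpnmb ran from 2 to 86, 165 and 91, with medians of 6.5, 8 and 7. Summed over the barcodes and divided by all their UMIs (CPM, the UMIs of a gene relative to all UMIs of the class in that library, scaled to the same total everywhere), Gpnmb stood at 799, 1333 and 992 CPM and Trem2 at 569, 941 and 1199.9 CPM. Of the barcodes with 2 UMIs of both genes, 17, 91 and 60 on days 3, 5 and 7 were left out for their resident genes, and 0, 1 and 39 held at least 3 Cd79a UMIs. Barcodes just inside the rule, with 2 UMIs of either gene, numbered 27, 48 and 17, and those just outside, with 1 UMI of 1 gene and at least 2 of the other, numbered 50, 74 and 61. Spp1 stood at 13108, 3996 and 1719 CPM just inside and at 10112, 3668 and 2123 CPM just outside.

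To see what else set these macrophages apart, UMIs were summed over the 78, 209 and 85 barcodes of days 3, 5 and 7 and compared within each library with the other mononuclear phagocytes that met the same limits on resident genes and Cd79a (498, 426 and 295 barcodes on days 3, 5 and 7). The genes used to define either class were left out of the test. Of 8490 genes tested, 891 (10.5%) differed at an adjusted p under 0.05, 376 (4.43%) higher and 515 (6.07%) lower in Trem2+ Gpnmb+ macrophages. In the CD11b+ pool the same comparison over days 1, 3 and 5 called 1207 of 10608 genes (11.4%), 484 (4.56%) higher and 723 (6.82%) lower. Over the 8404 genes tested in both experiments, 250 genes were called higher in both, which is 66.8% of the 374 called in the CD45+ libraries and 58.3% of the 429 called in the pool, and 357 were called lower in both (70.3% of 508 and 56.2% of 635). Trem2+ Gpnmb+ barcodes were deeper than the others (medians of 14895.5, 10492 and 12707 against 10120.5, 7290 and 9506 UMIs), and with the comparison barcodes matched on depth 631 genes were called. Without the day 5 library 267 genes were called. The 10 genes with the highest and the 10 with the lowest log2 difference in each comparison are named below. They were taken among called genes with at least 50 CPM on the higher side that moved the same way on all 3 days. Genes outside these limits, some with larger differences, are given as members of gene lists.

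Lipid-handling genes were higher. Of 23 tested, 14 were higher and 2 lower, with a median log2 difference of 0.57 against -0.01 over all genes, and in the pool 12 were higher and 2 lower of 23. Fabp5, a cytosolic fatty acid-binding protein, led the list at 1951, 1720.0 and 1767 CPM on days 3, 5 and 7, against 313, 301 and 273 CPM in the other phagocytes. Levels in Trem2+ Gpnmb+ macrophages were thus nearly flat over the days and never overlapped with those of the others (log2 difference 2.63 ± 0.10 SE, adjusted p = 4.07e-08), and the pool gave 2487, 2345 and 3313 against 418, 377 and 504 CPM on days 1, 3 and 5 (log2 difference 2.60). Fabp4, the related adipocyte and macrophage protein, stood at 80.6, 116 and 91.7 against 18.0, 17.4 and 35.2 CPM (log2 difference 2.11 ± 0.20 SE, adjusted p = 5.14e-05). It is also an endothelial gene, and the endothelial markers summed to 18.5, 8.02 and 13.9 CPM in Trem2+ Gpnmb+ macrophages and to 18.9, 17.7 and 22.7 CPM in the others, with Cldn5 at 0 in both classes on days 5 and 7. Cd36, a scavenger receptor for oxidised lipoprotein and fatty acids, was higher by 1.41 (adjusted p = 3.66e-05) on the log2 scale, Lpl, which releases fatty acids from lipoproteins, by 1.19 (adjusted p = 6.20e-04), and Lipa, the lysosomal lipase, by 1.00 (adjusted p = 1.22e-04). Apoe, the apolipoprotein that carries cholesterol out of the cell, was already abundant at 5914, 20821 and 24489 CPM in the other phagocytes and reached 12872, 33101 and 46353 CPM (log2 difference 0.92 ± 0.10 SE, adjusted p = 8.19e-05). The cholesterol exporters Abca1 and Abcg1 were higher by 0.56 and 0.94, and their regulator Nr1h3 (LXR alpha) by 1.03. Of the 2 lower genes, Olr1 (LOX-1), which takes up modified low-density lipoprotein, stood at 25.2, 18.1 and 29.6 against 54.1, 44.2 and 63.1 CPM (log2 difference -1.15 ± 0.15 SE, adjusted p = 4.31e-04).

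Genes that accompany Trem2 in lipid-associated macrophages and disease-associated microglia of other tissues were higher as well, with 13 higher and 1 lower of 20 tested (median 1.08) and 13 higher and 3 lower of 20 in the pool. Spp1 stood at 17322, 8757 and 5468 CPM on days 3, 5 and 7, against 6294, 2518 and 1659 CPM (log2 difference 1.67 ± 0.10 SE, adjusted p = 2.23e-06). On each day it was higher in Trem2+ Gpnmb+ macrophages, and in both classes the level was highest on day 3, and in the pool it stood at 23678, 10256 and 8736 against 6638, 3918 and 3306 CPM. Syngr1, a vesicle membrane protein, was the highest of the list at 166, 297 and 289 against 21.2, 65.5 and 69.7 CPM (log2 difference 2.38 ± 0.15 SE, adjusted p = 2.96e-06). Anpep, a surface aminopeptidase, was higher by 2.18 (adjusted p = 4.20e-05), and the tetraspanin Cd63 of late endosomes stood at 967, 2497 and 1778 against 227, 804 and 701 CPM (log2 difference 1.70 ± 0.13 SE, adjusted p = 7.29e-06). Lgals3 (galectin-3) was higher by 1.17 (adjusted p = 2.89e-05), the lysosomal proteases Ctsd and Ctsb by 1.49 and 1.27, and the protease inhibitor Timp2 by 1.47. The dendritic and microglial integrin Itgax was the exception, at -0.85 (adjusted p = 0.00925). Of the signalling partners of Trem2, 0 of 10 genes passed in the CD45+ libraries and 1 was higher and 1 lower in the pool. Tyrobp, the adaptor, differed by -0.03 (adjusted p = 0.897), Plcg2, a phospholipase downstream of Syk, by -0.54 (just above the threshold) and the adaptor Lat2 by 0.47 (adjusted p = 0.0533); in the pool Lat2 was higher (0.56, adjusted p = 0.0403) and Plcg2 lower (-0.42, adjusted p = 0.0321). A further 3 genes outside these lists were among the 10 highest. Slc27a1, a fatty acid transporter, was higher by 1.84 (adjusted p = 2.35e-05), Serpinb6a, an intracellular protease inhibitor, by 1.77 (adjusted p = 4.66e-06), and the monocyte-attracting chemokine Ccl8 stood at 9.24, 551 and 296 against 6.43, 158 and 54.0 CPM (log2 difference 1.96 ± 0.20 SE, adjusted p = 7.66e-05). The plot of levels by day shows Spp1, Fabp5, Cd63 and Ctsd above and H2-Aa, Plac8 and Il1b below the other phagocytes on every day.

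**Figure D2:**
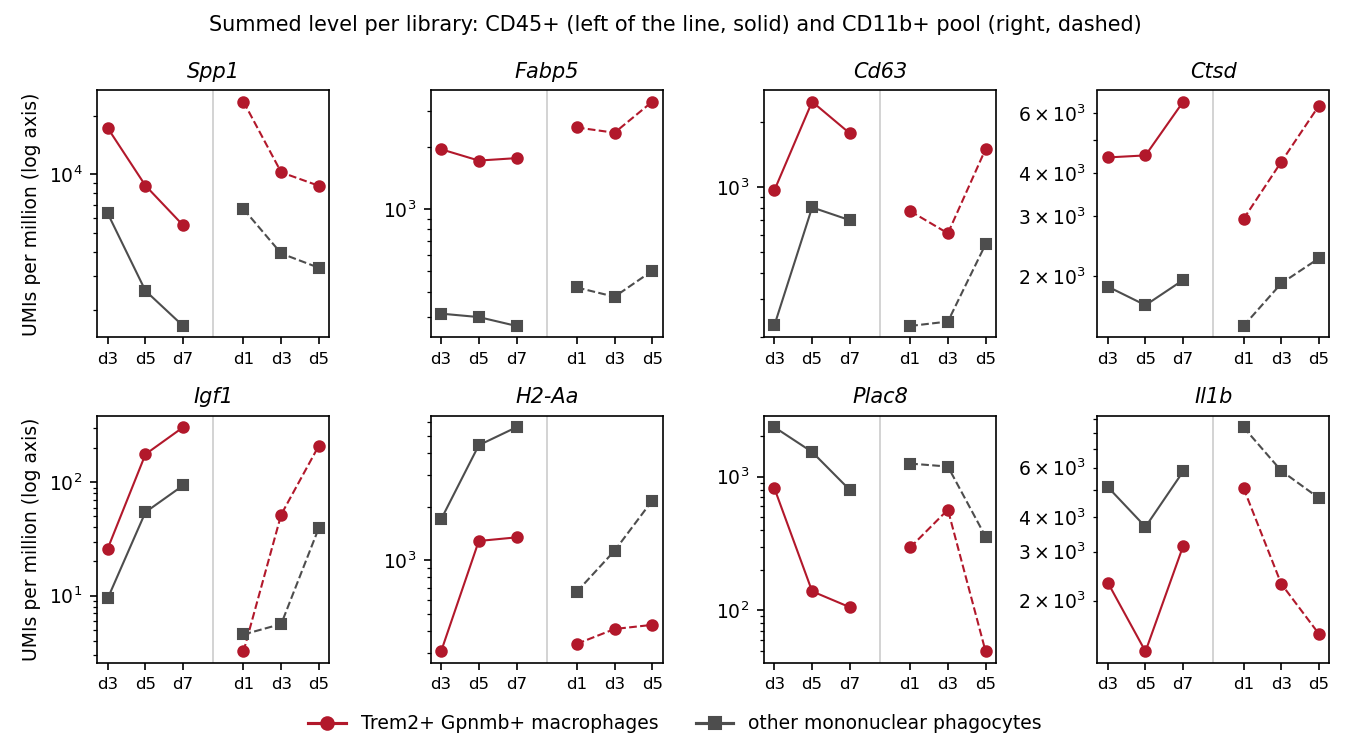
Summed level (CPM, log axis) of 8 genes on days 3, 5 and 7 of the CD45+ libraries (solid lines, left of the grey line) and days 1, 3 and 5 of the CD11b+ pool (dashed lines, right), in Trem2+ Gpnmb+ macrophages (red circles) and other mononuclear phagocytes (grey squares). Each point is 1 class in 1 library, with no error bar; Fabp5 lay above the others at every point, and Igf1 did so except on day 1 of the pool.

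Of 31 lysosomal genes 16 were higher and 0 lower (median 0.43), and in the pool 18 of 32 were higher and 0 lower. Among them were the membrane protein Lamp1 (0.60, adjusted p = 0.00208), prosaposin (Psap, 0.85, adjusted p = 2.72e-04), the hexosaminidase subunit Hexa (0.86, adjusted p = 4.87e-04), progranulin (Grn, 0.66, adjusted p = 7.69e-04) and the proton pump subunit Atp6v1a (0.91, adjusted p = 2.80e-04). Grn stood at 1644, 1687 and 1309 CPM against 962, 1173 and 837 CPM, and Atp6v1a at 198, 263 and 181 against 112, 124 and 108 CPM, so both were higher on every day. The highest differences belonged to Ctsk (3.38), Atp6v0d2 (2.85), the lysosomal nuclease Pld3 (1.50) and Acp5 (1.24), and most Ctsk transcripts sat in few barcodes, described further on. Without the barcodes rich in Ctsk, 16 of 31 lysosomal genes were called higher, Ctsk not among them, and 17 of 32 in the pool (over all genes 4.49% and 3.97%). The transcription factors that act on lysosomal genes were themselves not called in the CD45+ libraries: Mitf differed by 0.53 (adjusted p = 0.0926), Tfeb by 0.41 (adjusted p = 0.310) and Tfe3 by -0.38 (adjusted p = 0.346), while Mitf was higher in the pool (0.57, adjusted p = 0.0195).

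Gpnmb, a gene of the rule, is a known target of this factor family, and the promoters of all genes called higher were searched for the motifs it binds: the M-box and the E-box. The M-box searched was TCATGTG, which reads on the opposite strand of the DNA as the letters CACATGA. The E-box searched was CACGTG, which reads the same on both strands and does not overlap with the M-box. The window was the 250 bases before each annotated start (RefSeq, GRCm38.p6), and 310 of the 376 genes called higher (82.5%) had an entry. The M-box was present for 24 of these 310 genes (7.74%), for 156 of the 6907 tested genes with an entry (2.26%), for 11 of 417 called lower (2.64%) and for 3.72% of all 27025 genes of the table. The E-box was present for 43 (13.9%), 743 (10.8%), 38 (9.11%) and 6.86%. The AP-1 site (TGACTCA on either strand) was searched as well and was present for 17 (5.48%), 273 (3.95%), 29 (6.95%) and 5.16% of the same sets. In the pool 21 of 389 genes called higher (5.40%) and 203 of 8534 tested (2.38%) had an M-box, and among 204 genes called higher in both experiments 18 (8.82%) did. The genes with an M-box included Grn, Acp5, Gla, Fth1, C1qb, C1qc, Mmp12, Vegfb and Igf2r. These shares are descriptions of the letters in the window, not of binding. The windows of Grn and Acp5 are shown as examples with an M-box, Ctsd as one with the E-box and Gpnmb as one with neither, each 5′ to 3′ on the strand of the gene with the motif in capitals. Grn lies at chr11:102430257-102430506 on the plus strand with an M-box 210 bases before the start. Acp5 is shown for 1 of its 3 annotated starts, chr9:22130599-22130848 on the minus strand, with an M-box 90 bases before it, and the other 2 starts have none. Ctsd lies at chr7:142387828-142388077 on the minus strand with E-boxes 245 and 98 bases before the start, and Gpnmb at chr6:49036268-49036517 on the plus strand with no match.
Grn: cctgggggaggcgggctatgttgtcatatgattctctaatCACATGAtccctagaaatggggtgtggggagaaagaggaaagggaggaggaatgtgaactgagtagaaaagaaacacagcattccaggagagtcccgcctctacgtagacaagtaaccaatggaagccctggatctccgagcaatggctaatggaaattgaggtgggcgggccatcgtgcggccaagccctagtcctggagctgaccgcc
Acp5: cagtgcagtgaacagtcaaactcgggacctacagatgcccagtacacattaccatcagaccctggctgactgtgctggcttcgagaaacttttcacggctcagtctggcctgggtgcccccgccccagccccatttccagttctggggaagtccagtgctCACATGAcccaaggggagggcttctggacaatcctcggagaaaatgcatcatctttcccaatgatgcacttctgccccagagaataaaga
Ctsd: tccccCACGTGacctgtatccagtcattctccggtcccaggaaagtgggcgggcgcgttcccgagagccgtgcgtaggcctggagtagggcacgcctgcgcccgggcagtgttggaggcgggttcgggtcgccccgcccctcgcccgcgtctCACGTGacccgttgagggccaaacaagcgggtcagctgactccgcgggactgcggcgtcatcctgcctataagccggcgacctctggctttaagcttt
Gpnmb: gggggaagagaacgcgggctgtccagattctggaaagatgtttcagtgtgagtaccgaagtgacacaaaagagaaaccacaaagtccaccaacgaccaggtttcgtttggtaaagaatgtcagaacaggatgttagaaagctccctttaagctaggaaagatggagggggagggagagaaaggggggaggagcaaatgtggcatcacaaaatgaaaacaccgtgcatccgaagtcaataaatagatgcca

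Genes that take up dying cells and dispose of their iron followed. Of 15 efferocytosis genes 9 were higher and 0 lower (median 0.52), and 7 were higher and 2 lower of 15 in the pool. The bridging proteins led: Gas6, which links phosphatidylserine to Mertk and Axl, stood at 29.4, 115 and 156 against 11.3, 46.0 and 40.4 CPM (log2 difference 1.59 ± 0.16 SE, adjusted p = 5.29e-05). Mfge8, which links it to integrins, was called higher (1.79, adjusted p = 0.00350) at 5.04, 47.3 and 71.3 against 6.99, 11.9 and 13.2 CPM, so it was higher on days 5 and 7 and lower on day 3, and it did not pass in the pool (1.62, adjusted p = 0.106). The receptor Mertk was higher by 1.04 (adjusted p = 0.00341), while Axl, a receptor for Gas6 as well, differed by -0.53 (adjusted p = 0.0617) and was lower in the pool (-0.70, adjusted p = 0.0354). Of 17 genes of iron, haem and redox 8 were higher and 1 lower, and 6 and 1 of 18 in the pool. The iron exporter Slc40a1 (ferroportin) was higher by 1.82 (adjusted p = 0.00173), the haem transporter Slc48a1 by 0.94 (adjusted p = 2.81e-04) and the ferritin light chain Ftl1 by 0.86 (adjusted p = 8.12e-05). The lower one was Slc7a11, the cystine transporter that feeds glutathione synthesis, at 267, 136 and 65.7 against 603, 251 and 125 CPM (log2 difference -0.99 ± 0.11 SE, adjusted p = 1.65e-04). Haemoglobin transcripts were lower in the same comparison, with 4 of 4 erythroid genes called (median -1.66) and 0 of 3 in the pool. The erythroid list summed to 270.5, 4768 and 274 CPM in Trem2+ Gpnmb+ macrophages of days 3, 5 and 7 and to 289.8, 10194 and 3412 CPM in the others. Its part in the iron and haem values was not tested.

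Matrix and growth factor genes went both ways, with 10 higher and 5 lower of 26 (10 and 2 of 27 in the pool). Igf1, a growth factor of muscle repair, stood at 26.0, 177 and 307 against 9.45, 54.6 and 94.1 CPM (log2 difference 1.69 ± 0.12 SE, adjusted p = 5.94e-06), with the highest level in both classes on day 7. Gdf15, a stress cytokine, was higher by 1.12 (adjusted p = 4.68e-04), Pdgfa, a fibroblast mitogen, by 0.70 (adjusted p = 0.0432) and Vegfb by 1.48 (adjusted p = 0.0162). Fibronectin (Fn1) and the matrix protein Tgfbi were lower, at -0.87 (adjusted p = 3.41e-04) and -0.88 (adjusted p = 0.00163). Sparc was called higher (2.45, adjusted p = 0.0378) but stood above the others on day 7 alone (4.20, 3.61 and 174 against 4.91, 6.10 and 8.37 CPM), where 92.0% of its UMIs lay in 1 barcode, and fibroblast markers summed to 467 CPM in Trem2+ Gpnmb+ macrophages of day 7 against 13.6 CPM in the others, with all 7 markers detected in the former. Without the 1 day 7 barcode that held 10 or more collagen UMIs (Col1a1, Col1a2 and Col3a1), Sparc differed by 0.03 (adjusted p = 0.983).

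Antigen presentation genes were lower throughout. All 9 tested MHC class II genes were lower (median -1.83), as were 10 of 10 in the pool. H2-Aa, a class II chain, stood at 307, 1284 and 1345 against 1698, 4441 and 5608 CPM (log2 difference -2.08 ± 0.13 SE, adjusted p = 2.23e-06), and H2-Eb1 differed by -2.17 (adjusted p = 2.23e-06), the invariant chain Cd74 by -1.83 (adjusted p = 2.23e-06) and the costimulator Cd86 by -1.03 (adjusted p = 1.96e-04). Each of the 4 was lower on all 3 days. Dendritic cells express these genes strongly, and their markers were lower too, with 4 of 5 called. The dendritic list of 8 summed to 112, 37.7 and 53.7 CPM in Trem2+ Gpnmb+ macrophages, with Xcr1 and Clec9a at 0 on all 3 days, and to 140, 167 and 277 CPM in the others. Against only those other phagocytes with 0 UMIs of Cd209a, Flt3, Zbtb46, Xcr1 and Clec9a, 7 of 8 MHC class II genes were lower in the CD45+ libraries (median -1.50) and 6 of 9 in the pool (median -0.94). Over all genes 5.71% and 6.02% were lower there.

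Genes of freshly arrived monocytes were lower as well: 12 of 13 were lower and 0 higher (median -1.63), and 9 of 13 were lower in the pool. Plac8, abundant in blood monocytes, stood at 816, 139 and 106 against 2338, 1526 and 794 CPM (log2 difference -2.58 ± 0.27 SE, adjusted p = 8.19e-05). The level was highest on day 3 in both classes and lower in Trem2+ Gpnmb+ macrophages on every day. The chemokine receptor Ccr2, which brings monocytes to tissue, differed by -1.61 (adjusted p = 3.94e-05), the interferon-inducible membrane proteins Ifitm6 and Ifitm1 by -2.58 (adjusted p = 4.08e-05) and -2.55 (adjusted p = 4.49e-05), and Ly6i, of the Ly6 family, by -2.49 (adjusted p = 5.29e-05). Against other phagocytes with 0 Ly6c2 UMIs, 7 of 13 monocyte genes were lower and 1 higher in the CD45+ libraries, and 1 lower and 1 higher of 13 in the pool (medians -1.08 and -0.54). In that setting, which kept all Trem2+ Gpnmb+ barcodes with or without Ly6c2, 4.01% of all genes were lower and 2.87% higher in the CD45+ libraries, and 3.09% and 2.21% in the pool. In the pool Plac8 differed by -0.58 (adjusted p = 0.45) in that setting, and Ifitm6 by -1.22 (adjusted p = 0.0876).

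Inflammatory genes were lower in 9 of 19 and higher in 1, and lower in 12 of 20 in the pool with none higher. Il1b, the inflammasome-released cytokine, stood at 2322, 1314 and 3143 against 5116, 3679 and 5820.0 CPM (log2 difference -1.16 ± 0.11 SE, adjusted p = 5.43e-05). The protease inhibitor Slpi differed by -1.67 (adjusted p = 3.60e-05), the acute phase protein Saa3 by -1.49 (adjusted p = 1.31e-04) and Il6 by -2.10 (adjusted p = 4.03e-04), whereas the neutrophil chemokine Cxcl1 was higher (0.42, adjusted p = 0.0328). The decoy receptor Il1r2, the secreted protein Wfdc21 and the lectin-like Mcemp1 were among the 10 lowest genes, at -2.40, -2.08 and -2.08. S100a8, a calcium-binding protein of neutrophils and monocytes, stood at 439, 128 and 124 against 1899.6, 267 and 1137 CPM (log2 difference -2.08 ± 0.27 SE, adjusted p = 3.97e-04). Neutrophil markers as a list of 9 summed to 637, 448 and 253 CPM in Trem2+ Gpnmb+ macrophages and to 2790.2, 438 and 2638 CPM in the others, with Ly6g at 0 on days 5 and 7 of the former; their part in the S100a8 value was not tested. Arg1, the arginase of wound macrophages, was not called (-0.37, adjusted p = 0.142), and of 17 genes of arginine use, hypoxia and glycolysis 1 was higher and 5 were lower, led by the lactate exporter Slc16a3 (-1.26, adjusted p = 3.97e-04), while 0 were higher and 1 lower of 18 in the pool.

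Interferon-induced and proliferation genes gave other counts in the CD45+ libraries than in the pool. In the CD45+ libraries 2 of 16 interferon genes were higher and 4 lower, while in the pool 11 of 17 were lower and 0 higher (median -0.87). Against pool phagocytes with 0 Ly6c2 UMIs, 0 of 17 were called (median -0.11), near the 3.09% of all genes that were lower there. Of 18 proliferation genes 0 were higher and 1 was lower in the CD45+ libraries, and 11 of 19 were higher in the pool (median 0.71), among them Mki67, a marker of cycling cells (0.71, adjusted p = 0.0479, against 0.02 (adjusted p = 0.988) in the CD45+ libraries). Mki67 or Top2a was detected in 7.69%, 15.3% and 12.9% of Trem2+ Gpnmb+ barcodes on days 3, 5 and 7 of the CD45+ libraries and in 36.0% on day 5 of the pool, whose barcodes were deeper (median 29605.5 UMIs). Against pool phagocytes with 0 Ly6c2 UMIs 0 of 19 proliferation genes were called (median 0.34), near the 2.21% of all genes that were higher there. Without the Ctsk-rich barcodes 5 of 19 were higher (median 0.50). The difference between the experiments was not tested. The plot of list counts sets the groups side by side.

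**Figure D3:**
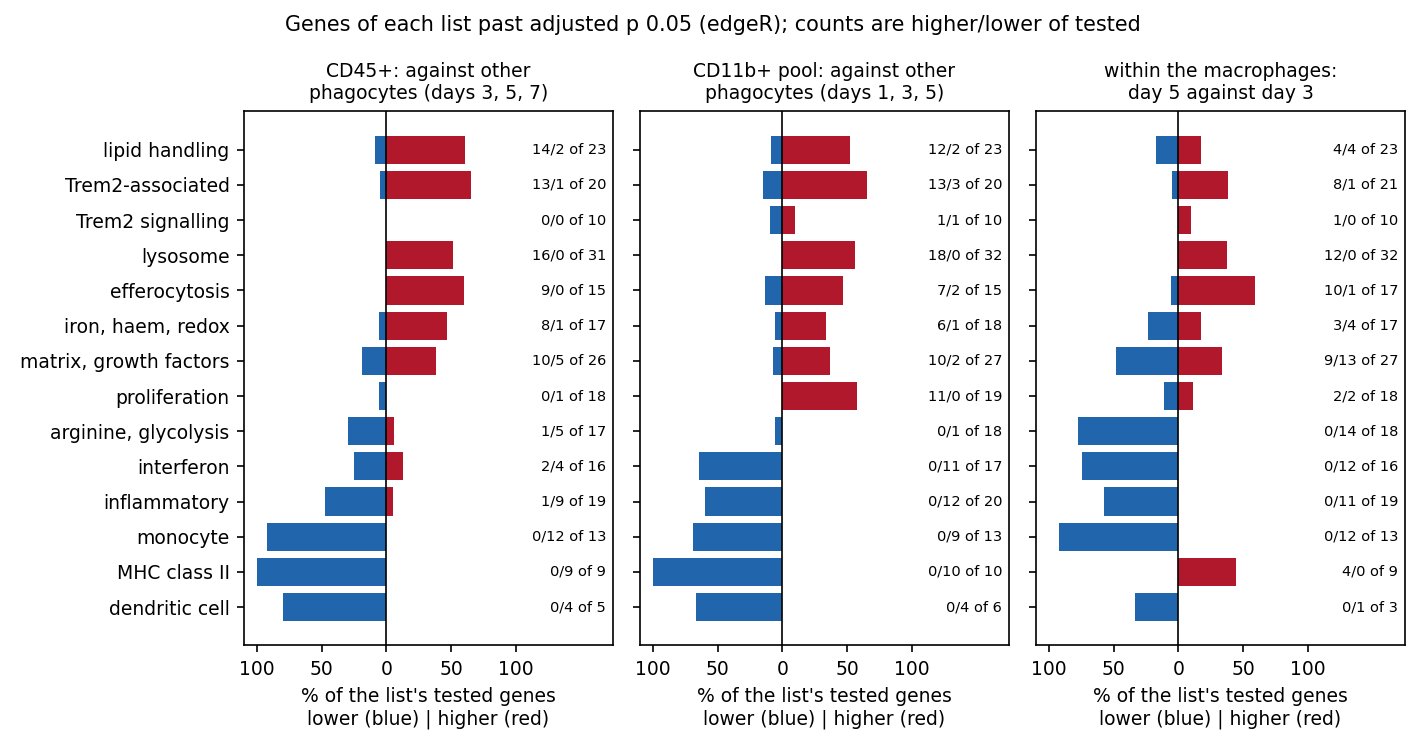
Share of each gene list's tested genes (%) called higher (red, right) or lower (blue, left) at edgeR adjusted p under 0.05, against other mononuclear phagocytes in the CD45+ libraries (left panel) and CD11b+ pool (middle), and on day 5 against day 3 within Trem2+ Gpnmb+ macrophages (right). Numbers give genes higher/lower of tested; over all genes 4.43% were higher and 6.07% lower in the left panel, 4.56% and 6.82% in the middle and 6.57% and 6.71% on the right, and no MHC class II gene was higher in either of the first panels.

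A few day 5 barcodes carried nearly all Ctsk. Ctsk encodes cathepsin K, the collagen-degrading protease of osteoclasts, and it had the highest fitted difference, at 10.9, 804 and 15.7 CPM on days 3, 5 and 7 against 3.40, 67.4 and 0.697 CPM (log2 difference 3.38, adjusted p = 1.05e-05). On day 5, 10 of 209 Trem2+ Gpnmb+ barcodes with 5 or more Ctsk UMIs (up to 511) held 1962 of 2005 Ctsk UMIs, or 97.9%. In the pool on day 5, 14 of 300 barcodes (up to 2552 UMIs) held 5767 of 5853, or 98.5%. Such barcodes numbered 0 of 78 on day 3 and 1 of 85 on day 7, and 0 of 20 and 6 of 228 on days 1 and 3 of the pool. Other phagocytes held 1 of 498 on day 3, 1 of 426 on day 5 and 1 of 465 on day 5 of the pool, and resident-type macrophages of the pool, which exceed the limit on resident genes, held 6 of 386 on day 3 and 11 of 628 on day 5. Without all these barcodes, whose removal lowers Ctsk by construction, the difference was 1.31 (adjusted p = 0.103), and 1.00 in the pool (adjusted p = 0.0554).

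The Ctsk-rich barcodes also carried other genes of the osteoclast lineage; they were chosen on Ctsk after its values were seen, so these levels are a description with no test. Acp5 (tartrate-resistant acid phosphatase) stood at 4020.2 CPM in them against 174 CPM in the remaining Trem2+ Gpnmb+ barcodes of day 5, and at 4726 against 168 CPM in the pool. Mmp9, a gelatinase, stood at 1809 against 16.3 and 2744 against 34.5 CPM, the proton pump subunit Atp6v0d2 at 749 against 22.7 and 884 against 19.6 CPM, and the transcription factor Nfatc1, which drives osteoclast differentiation, at 143 against 10.9 and 437 against 27.5 CPM. The fusion proteins Dcstamp and Ocstamp stood at 115 and 94.5 CPM against 4.53 and 0.906 CPM, while the calcitonin receptor Calcr of mature osteoclasts was at 0 in all of them. Genes of the other barcodes were low there: Spp1 stood at 3999 against 9374 CPM, Fabp5 at 815 against 1837, Apoe at 4671 against 36782 and Gdf15 at 21.0 against 527. All 4 were lower in the pool too, with Apoe at 2734 against 20769 CPM. Median depths were 29171.5 against 10335 UMIs on day 5 and 68551 against 28953 UMIs in the pool. The part of depth or of 2 cells in 1 droplet was not tested. Scrublet marked 0 of the 209 day 5 barcodes, but only 2 of all 948 of that library, too few to tell. In the pool it did not work. The scatter of Ctsk against Acp5 shows them apart from the other barcodes.

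**Figure D4:**
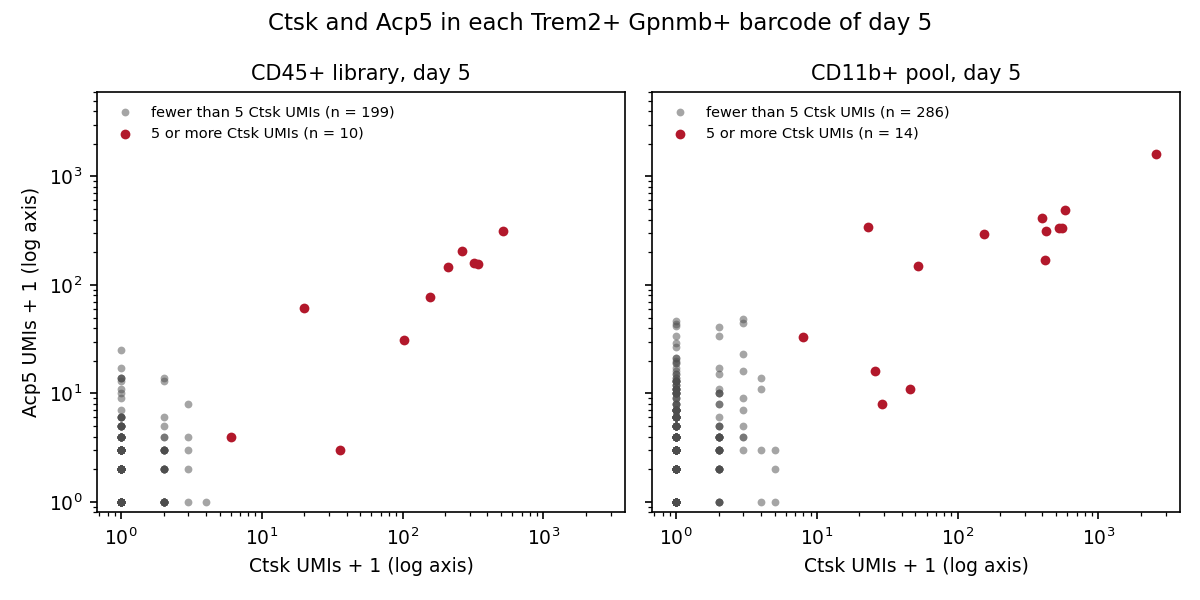
Ctsk and Acp5 UMIs (each plus 1, log axes) in every Trem2+ Gpnmb+ barcode of day 5, in the CD45+ library (left, n = 209) and the CD11b+ pool (right, n = 300). Each point is 1 barcode; red marks the 10 and 14 barcodes with 5 or more Ctsk UMIs, which hold most of the high Acp5 values.

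Resident-type macrophages (those with 3 or more UMIs over Lyve1, Folr2, Timd4 and Cbr2 and the same phagocyte genes) gave fewer calls than the other phagocytes did. Of 7105 genes 65 (0.915%) were called, 22 (0.31%) higher and 43 (0.605%) lower, over 60, 134 and 129 resident-type barcodes on days 3, 5 and 7. Lipid-handling genes gave 0 calls of 21, MHC class II genes 0 of 8, lysosomal genes 2 higher of 30 and Trem2-associated genes 1 higher of 18. Of 15 efferocytosis genes 0 were higher and 1 was lower, and Gas6 had the lowest log2 difference of that list. Without the Ctsk-rich barcodes 0 of 30 lysosomal genes were higher, against 0.212% of all genes. Fabp5 differed by 0.54 (adjusted p = 0.425) and Spp1 by 0.58 (adjusted p = 0.437). Resident-type macrophages themselves often held Trem2 and Gpnmb: 17 of 60, 89 of 134 and 41 of 129 had 2 UMIs of both, against 0 of 429 at steady state and 0 of 10 on day 1. Against only the resident-type barcodes below that level, 170 genes were called, with 6 of 20 lipid-handling and 10 of 18 Trem2-associated genes higher, against 1.01% of all genes.

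Among the lower genes were resident markers outside the rule, of which 8 of 14 were lower and 0 higher. The resident-type class was chosen for high resident genes, so lower levels of markers that go with them are in part built into the comparison. Vsig4, a complement receptor of tissue macrophages, had 0, 0 and 3 UMIs in Trem2+ Gpnmb+ macrophages of days 3, 5 and 7 and stood at 16.2, 16.0 and 153 CPM in the resident-type. Cd163, the haemoglobin scavenger receptor, had 1, 2 and 3 UMIs against 31.5, 13.8 and 111 CPM. The leukotriene synthase Ltc4s stood at 29.4, 34.5 and 39.8 against 377, 117 and 451 CPM (log2 difference -2.89 ± 0.28 SE, adjusted p = 3.86e-04), and the ficolin Fcna (-2.83, adjusted p = 0.00117) and the mannose receptor Mrc1 (-1.41, adjusted p = 0.00117) were lower as well. Saa3, Ccl8, the formyl peptide receptor Fpr1, the cyclin Ccnd1 and the neonatal Fc receptor Fcgrt differed by -2.67, -1.85, -1.60, -1.52 and -1.40. Beside Ctsk (4.81, and 0.57 with adjusted p = 0.764 without the Ctsk-rich barcodes), the higher genes were Cd24a (1.71), the chitinase-like Chil3 (1.31), macrophage elastase Mmp12 (1.29), Rsad2 (1.24), Vegfa (1.08), Cytip (1.08), Napsa (1.07), Slc7a11 (0.99) and the lectin Clec4n (0.98), with adjusted p-values of 0.00695 to 0.0492. Several lay near the threshold: without day 5, 14 genes were called in all, each lower, and without day 7 164 were. Immediate early genes differed too, with 3 of 15 handling-response genes lower (Egr1 -0.83, Jun -0.67, Atf3 -0.60); their part in the other values was not tested.

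Ly6c2+ monocytes (Csf1r, at least 2 UMIs of Ly6c2, the same limit on resident genes; 243, 112 and 63 barcodes on days 3, 5 and 7) overlap with the other phagocytes above, so this comparison shares its barcodes in part and is set beside it without counting shared genes. Of 6536 genes 777 (11.9%) were called, 340 (5.2%) higher and 437 (6.69%) lower in Trem2+ Gpnmb+ macrophages; 286 were called without day 5. Trem2-associated genes were higher in 13 of 18, lysosomal genes in 14 of 29 and lipid-handling genes in 13 of 22 with 3 lower, while 12 of 12 monocyte genes and 7 of 7 MHC class II genes were lower. The monocytes were chosen on Ly6c2, so lower levels of monocyte genes that go with it are in part built into the comparison. Igf1 stood at 26.0, 177 and 307 against 6.62, 8.34 and 41.0 CPM (log2 difference 3.07 ± 0.32 SE, adjusted p = 1.62e-04), and Gas6 at 29.4, 115 and 156 against 3.31, 20.2 and 13.1 CPM (log2 difference 3.02 ± 0.25 SE, adjusted p = 6.93e-05). Both lay lower in the monocytes on every day. Fabp5, Syngr1, Anpep, Serpinb6a and Slc27a1 were again among the 10 highest (log2 differences 2.94, 2.99, 2.92, 3.20 and 2.63), with Mmp12 (2.89) and the myelin protein Pmp22 (2.65). Among the 10 lowest were Plac8 (-3.77), Ifitm6 (-3.58), the proteoglycan Vcan (-3.25), Wfdc21 (-3.04), Ly6i (-2.96), Mcemp1 (-2.85), S100a8 (-2.78), Klra2 (-2.73) and haptoglobin, Hp (-2.66), each with an adjusted p of at most 0.00501. The Ctsk value (5.53) was 1.71 (adjusted p = 0.0944) without the Ctsk-rich barcodes.

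In the CD11b+ pool the genes named by the same rule overlapped in part with those of the CD45+ libraries. Higher there were Ctsk (4.22), Fabp5 (2.60), Anpep (2.04), Serpinb6a (1.99), Syngr1 (1.92), Pmp22 (1.76), Slc27a1 (1.75), the creatine transporter Slc6a8 (1.75), Gas6 (1.69) and Lpl (1.62). Lpl stood at 763, 357 and 442 CPM on days 1, 3 and 5 against 235, 119 and 136 CPM. The lowest were Retnlg (-3.20), S100a9 (-3.06), G0s2 (-2.65), S100a8 (-2.37), the niacin receptor Hcar2 (-2.34), Ifitm6 (-2.25), Acod1 (-2.23), Il6 (-2.20), Il1r2 (-2.10) and Plac8 (-2.02). Acod1, which makes itaconate in activated macrophages, stood at 56.1, 38.3 and 26.7 against 248, 283 and 74.2 CPM (log2 difference -2.23 ± 0.24 SE, adjusted p = 0.00105). Of the 20 genes, adjusted p-values ran up to 0.00600. Retnlg, S100a8 and S100a9 are neutrophil genes as well, and 5 of 6 tested neutrophil markers were lower in the pool; their part was not tested.

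Within Trem2+ Gpnmb+ macrophages, monocyte, interferon and glycolysis genes were lower on day 5 than on day 3. Levels in the other phagocytes of the same libraries differed between these days too. Whether the day differences were larger in either class was not tested. The 2 experiments served as the only replicates of each day (4 sums in all, 1 residual degree of freedom, so that the p-values rest largely on a spread shared over all genes), and of 9996 genes 1328 (13.3%) were called, 657 (6.57%) higher and 671 (6.71%) lower on day 5; without the Ctsk-rich barcodes 702 were. Genes of incoming monocytes fell in 12 of 13 (median -2.55), interferon genes in 12 of 16, inflammatory genes in 11 of 19 and genes of arginine use, hypoxia and glycolysis in 14 of 18, with 0 higher in any of the 4 lists. Levels of Trem2+ Gpnmb+ macrophages are given here relative to the UMIs of genes listed in both experiments, so they differ slightly from those above. Arg1 went from 1128 to 288 CPM in the CD45+ libraries and from 759 to 455 CPM in the pool (log2 difference -1.34 ± 0.14 SE, adjusted p = 1.10e-13). Plac8 fell by 3.07 on the log2 scale, Wfdc21 by 3.72, Chil3 by 2.93, Ifitm6 by 2.86 and the activin subunit Inhba by 2.76. In the other phagocytes Plac8 went from 2338 to 1526 CPM in the CD45+ libraries and from 1188 to 355 CPM in the pool. Arg1 went from 1132 to 369 and from 674 to 618 CPM, so both lay lower on day 5 there too. Spp1 fell by 0.62 (adjusted p = 3.39e-06), and Fabp5 did not pass (0.15, adjusted p = 0.477).

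Efferocytosis genes rose in 10 of 17 with 1 lower, lysosomal genes in 12 of 32 (8 of 32 without the Ctsk-rich barcodes, against 3.69% of all genes) and Trem2-associated genes in 8 of 21 with 1 lower. Igf1 went from 26.1 to 178 CPM in the CD45+ libraries and from 52.1 to 212 CPM in the pool (log2 difference 2.24 ± 0.15 SE, adjusted p = 5.78e-24). Apoe went from 12919 to 33218 and from 6299 to 19029 CPM (log2 difference 1.46 ± 0.10 SE, adjusted p = 3.39e-24), and Ccl8 from 9.27 to 553 and from 23.1 to 119 CPM (log2 difference 3.35 ± 0.21 SE, adjusted p = 6.24e-26). Each of the 3 was higher on day 5 in both experiments. In the other phagocytes Igf1 went from 9.45 to 54.6 and from 5.60 to 39.8 CPM. Apoe went from 5914 to 20821 and from 4136 to 12580.3 CPM there, and Ccl8 from 6.43 to 158 and from 7.12 to 38.1 CPM. All 3 thus lay higher on day 5 in both classes. Mfge8 and the phospholipid transfer protein Pltp rose by 2.95 and 2.39, Gdf15 by 2.23, and Ctsk and Atp6v0d2 by 4.72 and 2.93; without the Ctsk-rich barcodes Ctsk differed by 0.84 (adjusted p = 0.0934). MHC class II genes were called higher in 4 of 9, but H2-Aa moved by 2.02 in the CD45+ libraries and by 0.09 in the pool, and 0 of 9 passed without the Ctsk-rich barcodes. Haemoglobin transcripts moved with the day, with 4 of 4 erythroid genes higher (median 4.66; Hba-a1 from 54.8 to 1276 and from 0.244 to 34.0 CPM). The erythroid list summed to 4768 CPM in day 5 Trem2+ Gpnmb+ macrophages and 10194 CPM in the other day 5 phagocytes of the CD45+ libraries, and its part in the day differences was not tested.

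Surface proteins were read in the CD11b+ pool as antibody UMIs per barcode, which are given as descriptions with no test. CD64, the Fc gamma receptor of macrophages, had medians of 55, 59.5 and 53.5 on Trem2+ Gpnmb+ macrophages on days 1, 3 and 5, against 30, 26.5 and 37 on the other phagocytes. Cx3cr1 had 61.5, 68 and 71.5 against 51, 49 and 52, the macrophage protein F4_80 75.5, 69 and 67 against 65, 60 and 57, and the scavenger receptor MSR1 33, 30 and 26 against 25, 23 and 22. Resident-type macrophages of the pool had still higher medians of these proteins on each day. CD64 had 65, 74 and 67 on them, Cx3cr1 91, 87 and 88, F4_80 94, 84 and 79, and MSR1 53, 43 and 34. Against the other phagocytes, the median of Ly6C was higher on day 1 (244.5 against 181) and lower on days 3 and 5 (101.5 and 69 against 132 and 85). Ccr2 had 53, 48.5 and 44 against 51, 48 and 45, and TIM4 28.5, 29 and 28 against 29, 29 and 27. For Ly6C, F4_80, Ccr2 and TIM4 the medians of these classes lay within each other's quartiles on each day. IA_IE, the MHC class II protein, had higher medians on Trem2+ Gpnmb+ macrophages (88, 102.5 and 99.5 against 71, 73 and 82 on the other phagocytes), whereas the summed class II transcripts were lower. The transcripts were compared as sums over each class and the antibody as medians over barcodes, so the measures are not alike. On day 5 the upper quartile of IA_IE lay at 141 on them and at 168 on the others. All 10 antibodies together had medians of 912.5, 794.5 and 691.5 UMIs against 756, 770 and 689. As a share of a barcode's antibody UMIs, IA_IE had medians of 8.88%, 13.06% and 14.65% against 8.92%, 9.72% and 13.01%. F4_80 had 7.64%, 8.97% and 10.07% against 8.55%, 7.83% and 8.32%. The shares of both were thus not higher on day 1, but higher on days 3 and 5. The shares of CD64, Cx3cr1 and MSR1 were higher on each day. The part of the total in each antibody was not tested. The plot of antibody UMIs gives the medians with their quartiles.

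**Figure D5:**
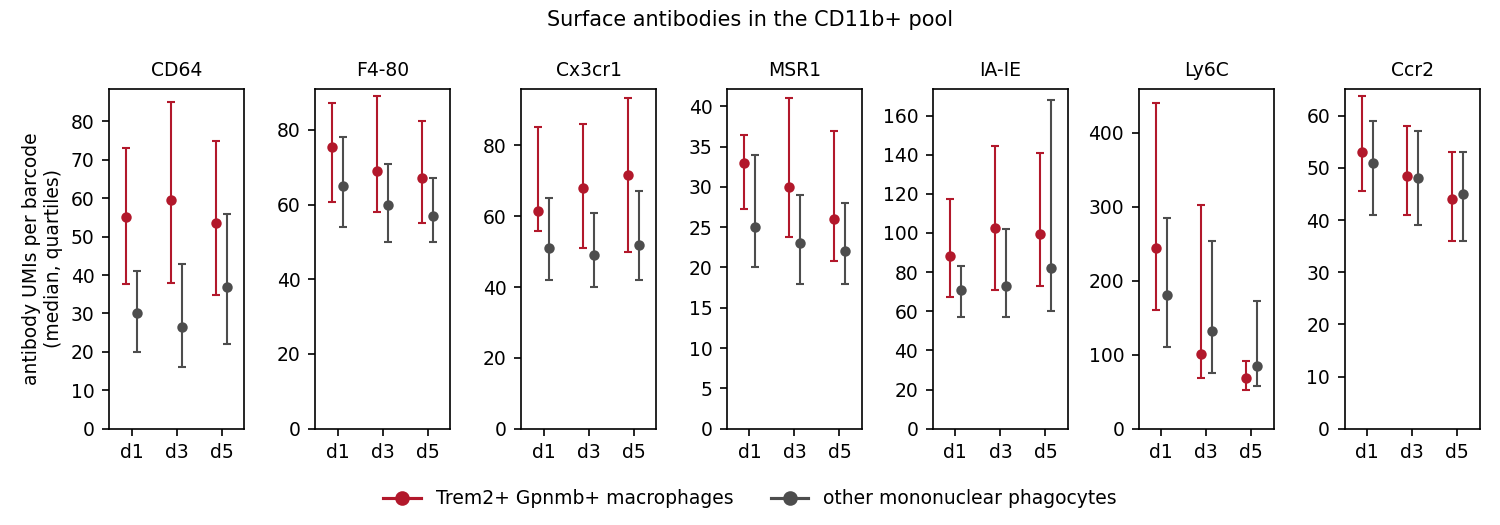
Antibody UMIs per barcode (linear axes from 0) for 7 surface proteins on days 1, 3 and 5 of the CD11b+ pool, in Trem2+ Gpnmb+ macrophages (red) and other mononuclear phagocytes (grey). Points are medians over barcodes and whiskers the quartiles, which are not replicate errors; CD64 shows the widest gap between medians relative to its level, 59.5 against 26.5 on day 3. Resident-type macrophages, not drawn, had higher CD64 medians than Trem2+ Gpnmb+ macrophages on each day.

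The Trem2+ Gpnmb+ macrophages were not uniform. Spp1, in UMIs per 10000 of a barcode, ran from 0 through a median of 83.7 to 670.3 on day 3, from 0 through 42.1 to 1344 on day 5 and from 0.858 through 29.0 to 479.6 on day 7. The MHC class II list had medians of 8.22, 13.5 and 38.6 per 10000, with highest values of 276, 1006 and 820.3. Ly6c2 reached 2 UMIs in 51.3%, 12.9% and 5.88% of barcodes on days 3, 5 and 7, against 48.4%, 26.3% and 20.7% of the other phagocytes. On day 3 this share was thus no lower than in the others. Arg1 was detected in 76.9%, 44.5% and 27.1% of Trem2+ Gpnmb+ barcodes. At least 10 Spp1 UMIs were found in 84.6%, 80.4% and 72.9%. Ccr2 was detected in 61.5%, 39.7% and 27.1% against 75.5%, 69.7% and 66.4% of the other phagocytes. With each barcode thinned to 2000 UMIs it was detected in 25.6%, 15.8% and 10.6% against 42.8%, 47.2% and 33.9%. In the pool, without thinning, Ccr2 was detected in 85%, 78.9% and 46% on days 1, 3 and 5. The other phagocytes of the pool gave 81.0%, 70.6% and 77.8%, so detection was lower there on day 5 alone. Across the barcodes of 1 library, which share depth and ambient RNA, Fabp5 went with Gpnmb (Spearman's rho 0.37, 0.49 and 0.59 over 78, 209 and 85 barcodes) and Spp1 went against the MHC class II sum (-0.34, -0.24 and -0.36), as descriptions with no test.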

How the data were processed

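Droplet (10x Genomics) 3' libraries were measured in 5 CD45+ samples (version 2 chemistry) and 1 hashed CD11b+ pool (version 3). The authors deposited UMI counts per gene and barcode with no normalization; the submitters' processing notes name Cell Ranger and the builds mm10 and GRCm38, and the header of the pool's matrix gives Cell Ranger 3.0.2. A blood and heart pool was not used here, since its hashtags were not matched to conditions. Class rules, limits and comparison classes are given in the report; the members, the gene lists and the alternatives were chosen with earlier results of these data known. UMIs were summed per class and library (at least 10 barcodes) and tested two-sided in edgeR 4.0.16 (R 4.3.3, limma 3.58.1): filterByExpr, TMM, glmQLFit and glmQLFTest with the library, or for days the experiment, as a term, and Benjamini-Hochberg adjustment over all genes tested. All adjusted p-values are from this test, on 2 residual degrees of freedom (1 for days). The library term pairs the classes because both came from the same mice. Biological coefficients of variation were 9.84% to 15.2%. A gene was named if it was among the 10 highest or 10 lowest log2 differences (5 and 5 for days) past 0.05, had at least 50 CPM on the higher side and moved the same way in every library. Mitochondrial, ribosomal, haemoglobin, Gm and Rik genes and the genes of the class rules were left out. A few other genes of the rules and lists are not reported here. The extremes of each list were named too, and other list genes were chosen for their role after their values were seen, as were the Ctsk-rich barcodes and the promoter motifs. Hashtags were called with a Gaussian mixture per hashtag, barcodes with 1 positive hashtag were used, and 59 of 623 rule-passing pool barcodes (9.47%) with several were left out, against 311 of all 4835 kept (6.43%). Scrublet marked 0.0207% of the pool's barcodes, so it did not work there. The test was checked on simulated counts, where false calls exceeded the nominal rate for the resident-type, monocyte and day comparisons. Alternatives included DESeq2 1.42.0, other scalings, no filter, no library term, each library left out, other UMI limits, thinning to 2000 UMIs and restricted comparison barcodes. Python 3.11.15 (numpy 2.4.6, pandas 2.3.3, scipy 1.17.1, scikit-learn 1.9.0, scanpy 1.11.5, matplotlib 3.10.9) was used.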

Additional observations from a re-analysis of the deposited data

Results flagged for a closer look

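The log2 difference of the antiviral gene Rsad2 between Trem2+ Gpnmb+ macrophages and other mononuclear phagocytes was 0.69 in the CD45+ libraries (adjusted p = 0.00547) and -0.88 in the CD11b+ pool (adjusted p = 0.0234), by edgeR's quasi-likelihood test. For Ifit3, an interferon-induced gene too, it was 0.69 in the CD45+ libraries (adjusted p = 0.00629) and -0.96 in the CD11b+ pool (adjusted p = 0.0156). Both stand out because every CD45+ library moved up and every day of the pool moved down. The levels of Rsad2 were 94.1, 90.2 and 62.0 against 50.7, 55.5 and 48.8 CPM on days 3, 5 and 7 of the CD45+ libraries and 30.5, 58.7 and 39.9 against 104, 115 and 49.8 CPM on days 1, 3 and 5 of the pool. The difference between the experiments, which differ in mice, sort, chemistry and days, was not tested.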

How the results depend on the processing

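Shares of phagocytes moved beyond their counting error with the UMI limits. With 1 UMI of each gene they were 22.5%, 37.9% and 31.0% on days 3, 5 and 7 of the CD45+ libraries and 21.2%, 29.6% and 29.4% on days 1, 3 and 5 of the pool. With 3 UMIs they were 8.03%, 21.0% and 13.4%, and 13.98% and 19.2% on days 3 and 5 of the pool. Thinned to 2000 UMIs they were 3.98% and 20.3% on days 3 and 5, and 2.5%, 11.6% and 27.5% in the pool. With no limit on resident genes they were 38.8% and 24.9% on days 5 and 7, and 39.6% and 57.0% on days 3 and 5 of the pool. Genes called against other phagocytes (891) numbered 420 in DESeq2, 2 with no library term, 234 in thinned barcodes, 527 against barcodes with 0 Ly6c2 UMIs and 267 to 1039 with 1 library left out, the lowest without day 5. Against resident-type macrophages (65) they numbered 28 in DESeq2, 324 with no filter (152 higher and 172 lower), 0 with no library term (688 at an unadjusted p under 0.05 with it), 170 against resident-type barcodes below 2 UMIs of Trem2 or Gpnmb, 38 without Ctsk-rich barcodes and 14 to 164 with 1 library left out. Against Ly6c2+ monocytes (777) they numbered 412 in DESeq2, 225 with no library term, 209 in thinned barcodes and 286 to 864 with 1 library left out. In the pool (1207) they numbered 712 in DESeq2, 1906 with no filter, 3 with no library term, 434 in thinned barcodes, 550 against barcodes with 0 Ly6c2 UMIs and 540 to 1507 with 1 day left out, the lowest without day 3. Between days (1328) they numbered 290 in DESeq2, 0 with no experiment term, 505 with 3 UMIs and 702 without Ctsk-rich barcodes; leaving out 1 sum there leaves no residual degree of freedom and was not run. For the named genes, 338 of 358 values against other phagocytes, 180 of 250 against resident-type macrophages, 225 of 233 against Ly6c2+ monocytes, 255 of 279 in the pool and 78 of 90 between days kept their direction and side of the threshold. In thinned barcodes 2 of the named genes changed sign: Chil3 against resident-type macrophages (-0.59) and Ctsk in the pool (-1.10). Among all called genes still tested in thinned barcodes, 25 of 645 changed sign against other phagocytes and 56 of 942 in the pool. In the same direction, 197 and 306 were called again. Against resident-type macrophages 1 of 34 changed sign and 15 were called again, and against Ly6c2+ monocytes 2 of 300 and 179. Apart from the restricted comparison groups and fewer barcodes, whose construction is given, the cause was not tested. The barcodes with 0 dendritic or 0 Ly6c2 UMIs, the collagen-rich and the Ctsk-rich barcodes were chosen after seeing the data.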
